A study of Mus musculus with 24 samples.

Results

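The transcripts described here encode the receptors for insulin and insulin-like growth factor 1 and the proteins that carry their signal: Insr, Igf1r, Irs1, Irs2, Pik3r1, Akt1, Akt2, Foxo1 and Foxo3. They were chosen by gene symbol, and all 9 were found among the 12310 genes of the count table and passed the filter on low counts. Counts were compared between MIN6 cells, a mouse insulinoma line used as a β-cell model, treated with verapamil (50 µM, 24 h) and untreated MIN6 cells (control). Both groups were kept at 5.6 mM glucose, and each gave 12 libraries. Verapamil blocks L-type calcium channels, through which calcium enters β-cells when glucose depolarizes them.

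Insulin and IGF1 bind receptor tyrosine kinases on the cell surface, which phosphorylate the adaptor proteins IRS1 and IRS2. Phosphorylated adaptors recruit the p85 regulatory subunit of phosphoinositide 3-kinase (PI3K), which holds the catalytic p110 subunit, and the lipid that this enzyme makes brings AKT to the membrane, where it is activated. AKT phosphorylates FoxO transcription factors and so keeps them out of the nucleus, and FoxO factors, when nuclear, turn on genes that include Insr and Irs2 in several tissues. In β-cells, IRS2 is the adaptor on which β-cell mass depends in mice, and its gene is also a known target of the transcription factor CREB downstream of calcium and cAMP.

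The promoters of the adaptor genes are shown because Irs1 and Irs2 carry like letters next to their starts while their transcripts had different values, and that of Akt1 because it holds the single FoxO site found. Sequences are RefSeq, mouse build GRCm38.p6, printed 5′ to 3′ on the minus strand, on which all 3 genes lie. The first is the stretch of 130 bases before the Irs1 start, at chr1:82291440-82291569, the next the 130 bases before the Irs2 start, at chr8:11008930-11009059, and the last a stretch of 60 bases before the Akt1 start, from position -190 to -131, at chr12:112675015-112675074. Capitals in the adaptor promoters mark an E-box (CACGTG) and the letters of the insulin response element (TGTTTTG), and in Akt1 a FoxO site (GTAAACA, here read from the other strand).
Irs1: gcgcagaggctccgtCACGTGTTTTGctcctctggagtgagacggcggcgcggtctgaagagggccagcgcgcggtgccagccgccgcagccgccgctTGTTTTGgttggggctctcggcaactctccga
Irs2: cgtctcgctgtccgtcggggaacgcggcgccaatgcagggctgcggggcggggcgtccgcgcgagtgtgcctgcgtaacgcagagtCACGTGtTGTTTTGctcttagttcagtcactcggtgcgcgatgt
Akt1: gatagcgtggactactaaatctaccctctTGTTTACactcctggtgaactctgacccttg

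In the Irs1 promoter the E-box starts at position -115 and overlaps a TGTTTTG that starts at -111, with another TGTTTTG at -32. In the Irs2 promoter the E-box starts at -44 and is followed, after a single base, by TGTTTTG at -37. Both strands of the 250 bases before each start were searched for 6 motifs, in the 8 members that have a promoter entry. Over 32851 mouse promoters of the same length, 6.02% held CACGTG, 5.56% TGTTTTG and 3.17% GTAAACA. The full cAMP response element TGACGTCA (1.55% of promoters) and the sterol element TCACNCCAC (1.05%) were found in no member, while TGACG, the core of a cAMP response element, (17.8% of promoters) was found in Irs1, Pik3r1, Akt2 and Foxo3. In Irs1 this match overlaps the E-box, and in Pik3r1 it lies only at the second of 2 starts, 75587 bases from the GENCODE start. Akt1 also has 2 starts and Akt2 has 4, and the shares are per promoter, not per gene. These are matches of letters only. The RefSeq start of Irs2 used here lies 471 bases from the start in the GENCODE annotation used for lengths.

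Total counts ranged from 12590476 to 32360171 in the control libraries and from 21840159 to 44806556 in the verapamil libraries. The libraries form 4 experiment sets of 3 per group, read from the first digit of a label, and no source used here spells that reading out. The p-values over libraries measure the spread between libraries, part of which may be technical. Column names C11, C12, V11 and V12 each match the labels of more than 1 sample, so these 4 libraries carry no replicate number here and were placed in set 4 by elimination. Of 10 β-cell markers, 9 were measured, with Ins2 at 1318 CPM (counts scaled to the size of the library) in control libraries. Of the 9, Ins2 (log2 fold change -1.05), Iapp (-0.85), Slc2a2 (-0.84) and Chga (-0.38) fell with verapamil, Mafa rose (0.85), and Ins1, Pdx1, Nkx6-1 and Pcsk2 did not pass the test. This is 1 that rose and 4 that fell, beside 62.8% of all genes called. After the correction for GC content and length given below, 2 rose and 6 fell, beside 57.2% of all genes called. There Slc2a2 was not called (-0.15, edgeR adjusted p = 0.22). Ins1 (-0.31), Pdx1 (-0.36) and Nkx6-1 (-0.20) were called as falls and Pcsk2 (0.22) as a rise. The part of the markers in the results below was not tested. Of the markers of other cell types, 1 was measured, glucagon (Gcg), with 185 ± 9.21 CPM in the controls and 260 ± 47.8 CPM after verapamil (SD, n = 12). Gcg was called as a rise (log2 fold change 0.49, edgeR adjusted p = 1.4e-05). The other markers looked up, of other islet, acinar, ductal, fibroblast, endothelial and immune cells, were not among the genes tested.

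The verapamil libraries also differed from the controls along properties of the transcripts. Across genes, the deviation of a library from the control mean correlated with transcript GC content at r between 0.0357 and 0.641 in verapamil libraries, against -0.199 to 0.173 in controls. For transcript length r was between -0.595 and -0.0559, against -0.147 to 0.129. The lowest of the length values was that of the verapamil library in column V11, and the other 11 lay between -0.394 and -0.0559. This library was also the lowest verapamil library for 7 of the 9 members, all but Pik3r1 and Akt1, so the members' fold changes and ratios are given with and without it. The longest annotated transcripts of the members have 2690 bases (Akt1) to 11409 bases (Igf1r), and GC contents of 44.9% (Pik3r1) to 59.7% (Akt1). Results are therefore also given after the smooth trend of each library over GC content and length was removed. Since the trends differed between the groups, a removed trend may hold part of the effect of verapamil, and these cannot be told apart.

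Verapamil raised Irs2, Akt1 and Akt2 and lowered Pik3r1 and Foxo1, and the other 4 members did not pass the test (edgeR quasi-likelihood test on all 24 libraries, Benjamini-Hochberg adjustment over 12306 genes, adjusted p under 0.05). Over counts summed per experiment set the call of Akt2 was lost (adjusted p = 0.073). Irs2 had the largest rise among the 9, at 1.73-fold, and Pik3r1 the largest fall, to 0.522 of the control level. This is 5 of 9 members, beside 62.8% of all genes tested that passed. In single directions, 3 members rose, beside 31.2% of all genes, and 2 fell, beside 31.6%. The share of members called was thus near that of all genes. Without the library in column V11, 5 members rose and 3 fell, beside 63.7% of all genes called. In bulk RNA, a lower share of cells with a transcript and less of it per cell cannot be told apart, and CPM values are relative to the rest of the library.

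**Figure D1:**
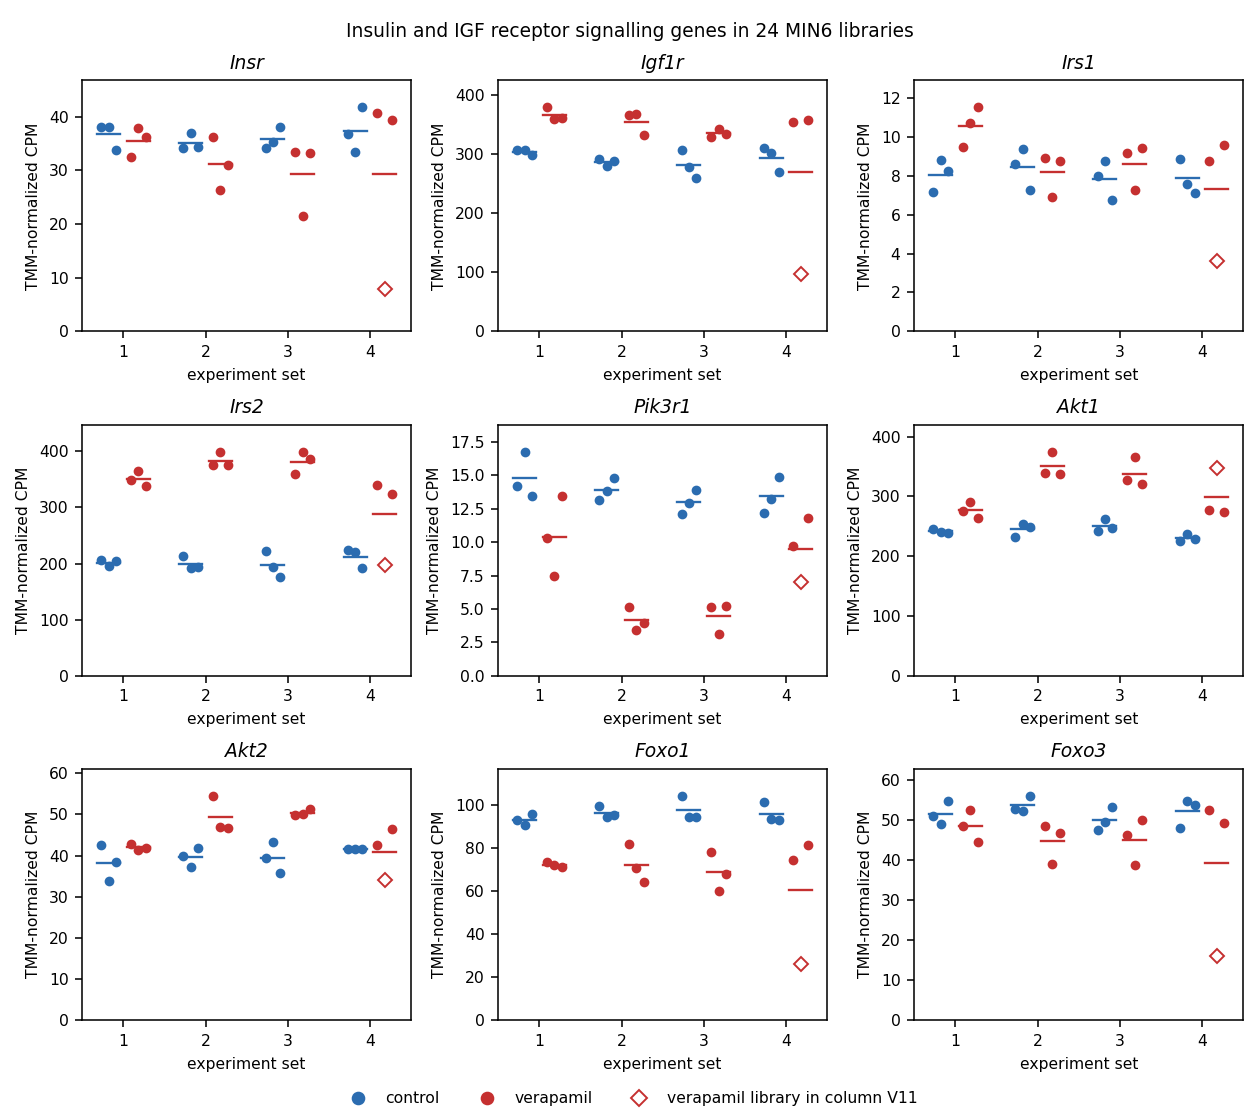
Level of each of the 9 genes in TMM-normalized CPM (vertical axes, from 0) in the 24 libraries, by experiment set (horizontal axes), with control in blue and verapamil in red, with short bars as means of 3 libraries and the open diamond is the verapamil library in column V11. All verapamil libraries lay below the controls for Foxo1 and above them for Akt1, the 11 filled red points of Irs2 and Igf1r lay above every control, and Pik3r1 was lowest in sets 2 and 3.

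Insr (ENSMUSG00000005534, chromosome 8, 3122061 to 3279617, minus strand) encodes the insulin receptor. Its level was 33.4, 36.0 and 41.7 CPM (lowest, median and highest) in the control libraries and 7.90, 33.3 and 40.6 CPM in the verapamil libraries. The groups overlapped, with 7 verapamil libraries below every control and none above. The log2 fold change was -0.21 ± 0.15 (SE, n = 12 per group, adjusted p = 0.24), and -0.12 without column V11 (adjusted p = 0.19). After the GC and length correction its sign turned, to 0.21 (adjusted p = 0.061). With the GC and length slopes of the libraries as covariates Insr was called as a rise (0.28, adjusted p = 0.022). Without the verapamil libraries of set 4 it was called as a fall (-0.18, adjusted p = 0.041). These data thus gave no direction for Insr that held under all of these fits.

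Igf1r (ENSMUSG00000005533, chromosome 7, 67952827 to 68233668, plus strand), the receptor for IGF1, was the more abundant of the receptor transcripts. It measured 260, 295 and 310 CPM in control and 96.6, 357 and 380 CPM in verapamil libraries. A total of 11 verapamil libraries lay above every control and the last, column V11, lay below every control. The call turned on that library. The log2 fold change was 0.19 ± 0.13 with all libraries (adjusted p = 0.21) and 0.27 without column V11 (adjusted p = 1.2e-06). In sets 1, 2 and 3, fitted alone, it was 0.26, 0.29 and 0.26 (adjusted p = 0.0025, 0.0035 and 0.042).

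Irs1 (ENSMUSG00000055980, chromosome 1, 82233101 to 82291416, minus strand) was the member with the lowest level per length in control cells. It measured 6.75, 8.11 and 9.36 CPM in control and 3.63, 9.04 and 11.5 CPM in verapamil libraries, from 84 to 521 reads per library. The groups overlapped, 5 verapamil libraries lying above the control range and 1 under it. The log2 fold change was 0.11 ± 0.12 (adjusted p = 0.42), and 0.18 without column V11 (adjusted p = 0.049). In set 1 alone the 3 verapamil libraries lay above the controls, at 10.6 ± 1.03 CPM (SD, n = 3) against 8.05 ± 0.830 CPM, while in set 2 the means were 8.20 and 8.42 CPM. Without the verapamil libraries of set 1 the log2 fold change was -0.01 (adjusted p = 0.97).

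Irs2 (ENSMUSG00000038894, chromosome 8, 10984681 to 11008458, minus strand) measured 175, 200 and 224 CPM in control and 198, 362 and 399 CPM in verapamil libraries. All verapamil libraries but column V11, which lay within the control range, were above every control. Its log2 fold change was 0.79 ± 0.08 (adjusted p = 8.7e-09). It was 0.84 without column V11 (adjusted p = 1.7e-13), 0.82 after the GC and length correction (adjusted p = 1.3e-13) and 0.81 with the GC and length slopes of the libraries as covariates (adjusted p = 4.4e-14). The means of set 2 were 200 ± 11.5 CPM in control and 383 ± 13.9 CPM in verapamil libraries (SD, n = 3), and those of set 4, with column V11, 212 ± 17.9 and 288 ± 78.0 CPM. An overlapping gene on the opposite strand, 9530052E02Rik, is annotated at this locus, as Gm9747 is at Irs1, Gm16180 at Insr and Gm20402 at Foxo1, and no source used here says whether reads were counted by strand.

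Pik3r1 (ENSMUSG00000041417, chromosome 13, 101680563 to 101768217, minus strand), which encodes p85α, the most widely expressed regulatory subunit of PI3K, moved the other way. It measured 12.1, 13.7 and 16.8 CPM in control and 3.15, 6.13 and 13.5 CPM in verapamil libraries, from 70 to 610 reads per library. The 11 verapamil libraries that lay below every control left 1, in set 1, within the control range. In edgeR the log2 fold change came to -0.94 ± 0.19 (adjusted p = 0.00022), and -0.94 without column V11 (adjusted p = 0.00038). It was smaller after the GC and length correction, at -0.50 (adjusted p = 0.00055), and with the slopes as covariates, at -0.24 (adjusted p = 0.039).

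The fall of Pik3r1 differed between experiment sets. The mean in verapamil libraries was 10.4 ± 3.0 and 9.51 ± 2.40 CPM in sets 1 and 4 and 4.20 ± 0.875 and 4.50 ± 1.17 CPM in sets 2 and 3 (SD, n = 3), while the control means of the 4 sets ranged from 13.0 to 14.8 CPM. The log2 differences of the means were -0.54, -1.75, -1.56 and -0.53 in sets 1 to 4. An interaction of set and treatment in the same edgeR model gave adjusted p = 0.015 for Pik3r1 and no call for the other 8 members, beside 9.72% of all genes. The GC correlation of the verapamil libraries moved with the same sets, with means of 0.195, 0.555, 0.563 and 0.160 in sets 1 to 4, and its part in the difference was not tested. Without set 1 and without set 2 the interaction of Pik3r1 was no longer called (adjusted p = 0.069 and 0.11, unadjusted edgeR p = 0.0013 and 0.0074), and without column V11 that of Akt1 was called as well (adjusted p = 0.022), beside 0.0015 for Pik3r1. Calls over all genes moved too. Of 12306 genes, 1196 were called with all libraries, 129 without set 1, 147 without set 2 and 4054 without column V11.

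Akt1 (ENSMUSG00000001729, chromosome 12, 112653821 to 112674884, minus strand), the AKT isoform best known for growth and survival, had the highest level per length of the 9. It measured 225, 242 and 263 CPM in control and 264, 324 and 375 CPM in verapamil libraries. All 12 verapamil libraries lay above every control. Of all genes tested, 10.1% had all 12 verapamil libraries on one side of every control, and of the 9 members 2 did, Akt1 and Foxo1. The log2 fold change of Akt1 was 0.38 ± 0.06 (adjusted p = 3.1e-06), and 0.37 without column V11 (adjusted p = 7.2e-06). After the GC and length correction it was 0.13 (adjusted p = 0.00033), so the call held at a smaller size.

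Akt2 (ENSMUSG00000004056, chromosome 7, 27591552 to 27640826, plus strand), the isoform best known for insulin-stimulated glucose uptake, measured 33.8, 40.8 and 43.3 CPM in control and 34.1, 46.5 and 54.5 CPM in verapamil libraries. The groups overlapped, with 7 verapamil libraries above every control. The fitted log2 fold change was 0.20 ± 0.06 (adjusted p = 0.0076), and 0.23 without column V11 (adjusted p = 0.00072). The rise rested on sets 2 and 3, whose means went from 39.7 to 49.4 CPM and from 39.5 to 50.5 CPM. Without set 2 or set 3 the call was lost (adjusted p = 0.089 and 0.11), as it was over the sums per experiment set (0.19, edgeR adjusted p = 0.073, exact permutation p = 0.0571). After the GC and length correction the log2 fold change was 0.12 (adjusted p = 0.016).

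Foxo1 (ENSMUSG00000044167, chromosome 3, 52268336 to 52353221, plus strand), the main FoxO factor of β-cells, measured 90.7, 94.4 and 104 CPM in control and 26.2, 71.5 and 81.7 CPM in verapamil libraries. All 12 verapamil libraries lay below every control. Fitted over all libraries, the log2 fold change was -0.48 ± 0.11 (adjusted p = 0.00056), and -0.41 without column V11 (adjusted p = 9.6e-08). In sets 1, 2 and 3 the control means were 93.0, 96.1 and 97.6 CPM and the verapamil means 72.2, 72.0 and 68.7 CPM. After the GC and length correction the log2 fold change was -0.17 (adjusted p = 0.034).

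Foxo3 (ENSMUSG00000048756, chromosome 10, 42181841 to 42276755, minus strand), a related factor with shared target genes, measured 47.7, 52.6 and 56.1 CPM in control and 16.0, 47.7 and 52.7 CPM in verapamil libraries. The groups overlapped, with 6 verapamil libraries below every control. The change was, on the log2 scale, -0.23 ± 0.12 (adjusted p = 0.092) and -0.15 without column V11 (adjusted p = 0.014). With the GC and length slopes as covariates its sign turned, to 0.09 (adjusted p = 0.43).

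**Figure D2:**
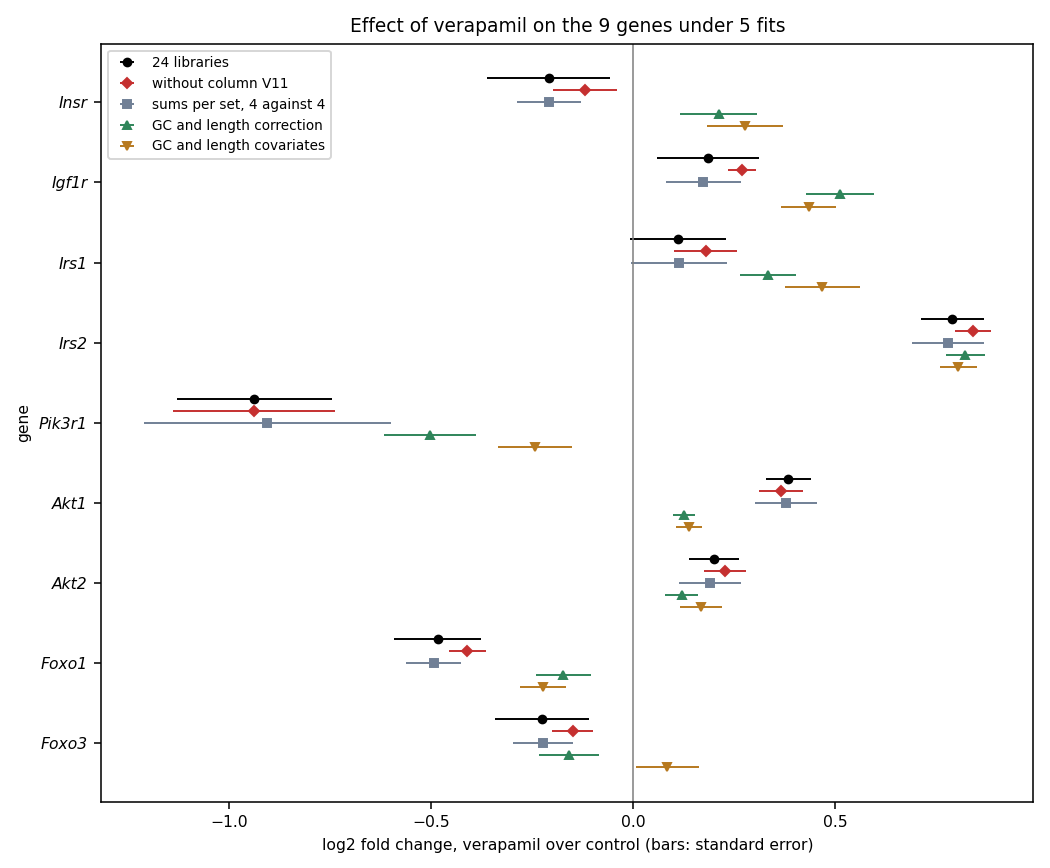
Log2 fold change of verapamil over control (horizontal axis) with its standard error for each of the 9 genes (vertical axis) under 5 fits: all 24 libraries, without the verapamil library in column V11, counts summed per experiment set and group, with each library's trend over GC content and length removed, and with the GC and length slopes as covariates. The values of Irs2 lay between 0.78 and 0.84 under all 5, Pik3r1 moved from -0.94 to -0.24, and the signs of Insr and Foxo3 turned.

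After the GC and length correction 5 members rose and 2 fell, beside 57.2% of all genes called, and with the slopes as covariates 6 rose and 2 fell, beside 35.5% of all genes. Under this last fit 2628 genes rose and 1736 fell in all, against 3836 and 3890 in the uncorrected fit. Igf1r rose under both (0.51 and 0.44, adjusted p = 1.6e-05 and 8.8e-06), as did Irs1 (0.33 and 0.47, adjusted p = 0.00021 and 0.00020). Over the sums per experiment set, 4 against 4, 2 members rose and 3 fell, beside 41.7% of all genes. These were Irs2 (0.78, edgeR adjusted p = 0.00064), Akt1 (0.38, 0.0066), Foxo1 (-0.49, 0.0016), Pik3r1 (-0.91, 0.043) and Foxo3 (-0.22, 0.040). Each of these 5 had p = 0.0286 in the exact two-sided permutation test over the sums, the smallest p it allows. Without column V11, Pik3r1 and Foxo3 were no longer called over the sums (adjusted p = 0.082 and 0.12). There 1929 of all genes rose and 1263 fell, against 3005 and 2124 with this library.

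Since both counts of a ratio come from the same library, the ratio of a gene to its relative does not depend on the scaling of the library. The Irs2 to Irs1 ratio had a median of 25.6 in control and 40.0 in verapamil libraries, and all 12 verapamil libraries were above every control. On the log2 scale it rose by 0.71 ± 0.10 (SE, n = 12 per group, two-sided permutation p = 2e-05, the smallest that the permutations can give, 8e-05 after adjustment over the 4 ratios), by 0.67 without column V11, and by 0.49 after the GC and length correction. The Insr to Igf1r ratio had medians of 0.121 and 0.0991, with 11 verapamil libraries below every control (log2 difference -0.43 ± 0.09, permutation p = 6e-05, adjusted 0.00011, -0.41 without column V11 and -0.31 after the correction). The receptor transcripts were thus shifted toward Igf1r and the adaptor transcripts toward Irs2. How often the ratios of other gene pairs set the groups apart was not analysed, and 62.8% of all single genes were called.

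The Foxo3 to Foxo1 ratio had medians of 0.554 and 0.638, with 11 verapamil libraries above every control (log2 difference 0.25 ± 0.05, permutation p = 8e-05, adjusted 0.00011, 0.26 without column V11). After the GC and length correction the difference was 0.01 (adjusted permutation p = 0.93), so it was lost. The Akt2 to Akt1 ratio had medians of 0.167 and 0.153, with 4 verapamil libraries below every control and the lowest value, 0.0979, in column V11 (log2 difference -0.18 ± 0.07, permutation p = 0.013, adjusted 0.013, -0.13 without column V11). It was -0.00 after the correction (adjusted permutation p = 0.93). Over the means of the 4 sets each of the 4 ratios gave p = 0.0286 in the exact two-sided permutation test, the smallest it allows.

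**Figure D3:**
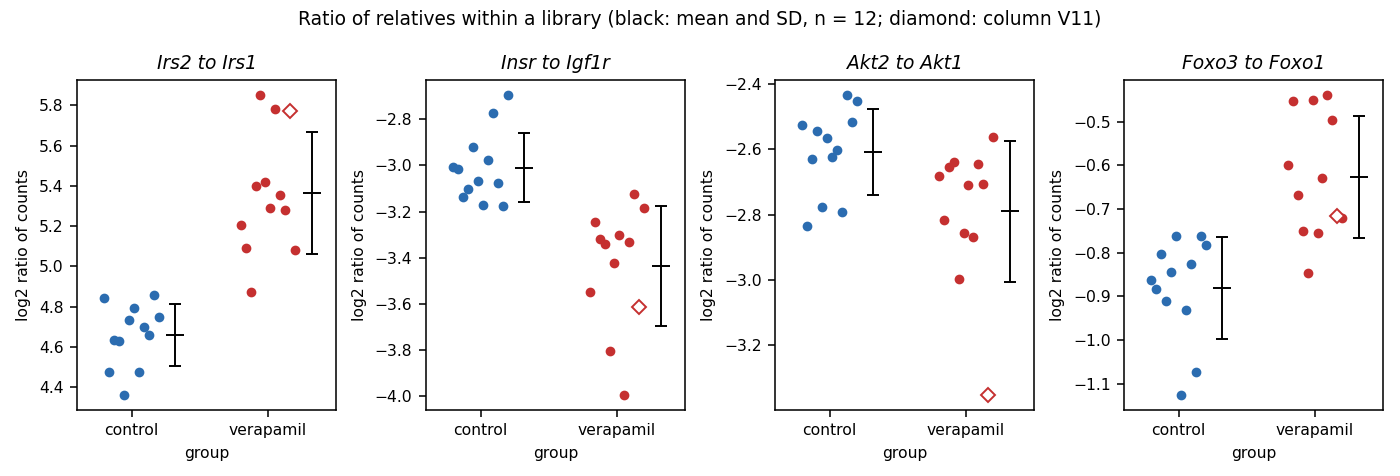
Log2 ratio of the counts of 2 related genes within a library (vertical axes, which do not start at 0) in 12 control (blue) and 12 verapamil (red) libraries, where black marks show the mean and SD, and the diamond is column V11. The groups were apart for Irs2 to Irs1, 11 verapamil libraries lay outside the control range for Insr to Igf1r and for Foxo3 to Foxo1, and the groups overlapped for Akt2 to Akt1.

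Levels of different genes were compared per kilobase of exon. In control cells the order was Akt1 (59.1 ± 2.61 CPM per kilobase, SD, n = 12), Irs2 (32.1 ± 2.36), Igf1r (17.4 ± 0.974), Foxo1 (11.04 ± 0.449), Foxo3 (6.87 ± 0.373), Akt2 (5.58 ± 0.417), Insr (2.64 ± 0.182), Pik3r1 (1.37 ± 0.127) and Irs1 (0.879 ± 0.0930), and no range over libraries overlapped that of its neighbour. In verapamil-treated cells Akt1 (77.2 ± 9.41), Irs2 (55.5 ± 8.47) and Igf1r (19.8 ± 4.51) kept their places with no overlap between Akt1 and Irs2 or between Irs2 and Igf1r. From Igf1r down the ranges of all neighbours overlapped. There Akt2 (6.41 ± 0.776) stood before Foxo3 (5.87 ± 1.33), and Irs1 (0.949 ± 0.222) before Pik3r1 (0.710 ± 0.341). Column V11 was the lowest verapamil library for all genes from Igf1r down but Pik3r1. It held Igf1r at 96.6, Insr at 7.90 and Foxo3 at 16.0 CPM, against at least 329, 21.5 and 38.8 CPM in the others. The order without this library was not analysed.

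Pairwise correlations of the members within a group are given as a description. Over the 12 control libraries, Pearson r of log2 CPM ranged from -0.80 (Pik3r1 and Foxo1) to 0.82 (Irs2 and Igf1r). Over the 12 verapamil libraries, Insr, Igf1r, Irs1, Foxo1 and Foxo3 had r from 0.881 (Irs1 and Igf1r) to 0.980 (Insr and Foxo3), while Pik3r1 and Akt1 had r = -0.93. In control libraries r was -0.11 for Insr and Foxo3 and 0.08 for Pik3r1 and Akt1. The high values among the 5 genes rested on column V11, at which the 5 genes were lowest. Without it, over 11 verapamil libraries, r was 0.10 for Irs1 and Igf1r, 0.20 for Insr and Igf1r, 0.50 for Foxo1 and Foxo3 and 0.87 for Insr and Foxo3, while Pik3r1 had r = -0.98 with Akt1 and -0.93 with Irs2. The libraries share their GC and length trends. The pairs were chosen after their values were seen.

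Among the 9036 genes whose mean reached 5 CPM, the gene whose log2 CPM was most like that of Irs2 over all 24 libraries was Diras2, a small GTPase (r = 0.984), followed by Fn1, fibronectin (r = 0.982), and Cry2, a clock repressor (r = 0.979). The gene most like Insr was Xylt1, level with Cacna1c, which encodes the pore of the L-type channel Cav1.2 (r = 0.979 for each, and 0.880 and 0.877 without column V11). The genes most like the others were Ago2 for Igf1r (r = 0.981, and 0.905 without column V11), Pcnx for Irs1 (r = 0.915, and 0.765), Pola1 for Pik3r1 (r = 0.989), Coro1b for Akt1 (r = 0.986), Caskin1 for Akt2 (r = 0.906), Tns3 for Foxo1 (r = 0.984) and Xylt1 for Foxo3 (r = 0.977, and 0.852). An r of at least 0.9 was reached by 1226 genes for Pik3r1, 978 for Akt1, 161 for Insr and 150 for Foxo1. The counts were 129 for Irs2, 122 for Foxo3, 75 for Igf1r, 4 for Irs1 and 2 for Akt2. These r values, over the libraries of both groups, include the difference between the groups.

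The other genes of the pathway were followed in 10 lists. Of 107 measured, 30 rose and 42 fell, while 35 were not called, with a median log2 fold change of -0.08 beside -0.00 over all genes tested. Of all genes, 31.2% rose and 31.6% fell, the shares beside which each list count below stands, and 62.8% were called, so the share of pathway genes called was near that of all genes. Without column V11, 33 rose and 40 fell, beside 3864 and 3973 of the 12306 genes tested. After the GC and length correction 34 rose and 26 fell, beside 3409 and 3630 of all genes. The balance between directions in the lists thus turned with the correction, and that over all genes did not. With the slopes as covariates 24 rose and 16 fell, beside 2628 and 1736 of all genes, so under that fit both balances turned.

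Of the list genes named below, Socs1 and Pik3ap1 lost their call without column V11, and the others kept their direction and call. Over the sums per experiment set the calls of Igfbp5, Pik3ca, Pik3cb, Pik3ap1, Rictor, Prr5, Pdpk1, Sgk3, Rps6kb1, Deptor, Ptpn2, Socs1, Socs2, Rbl2 and Creb1 were lost. With the GC and length slopes as covariates the calls of Ins2, Igfbp4, Insrr, Sh2b1, Pik3r3, Bad, Rps6, Deptor, Txnip and Camk4 held, those of Pdpk1 and Gsk3b turned direction, and the others were lost.

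Among ligands and binding proteins, 6 of 8 measured genes fell and none rose (median -0.46), beside 31.6% of all genes that fell and 31.2% that rose. After the correction the median was -0.40, with 6 called, beside 57.2% of all genes. Ins2, an insulin gene, fell from 1318 ± 160 to 635 ± 116 CPM (log2 fold change -1.05, adjusted p = 2.0e-10), with all 12 verapamil libraries below every control, and after the correction by 1.41 on the log2 scale. Ins1, the other mouse insulin gene, measured 485 ± 103 and 434 ± 126 CPM (adjusted p = 0.31), and the similarity of the 2 genes makes the split of reads between them uncertain. Ins1 was called as a fall after the correction (-0.31, adjusted p = 0.032) and with the slopes as covariates (-0.60, adjusted p = 0.00073). Igfbp4, which binds IGFs, fell (-0.71, adjusted p = 1.7e-05, -0.86 after the correction). Ide, the insulin-degrading enzyme, fell in the uncorrected fit (-0.52, adjusted p = 0.00031) and was at -0.06 after the correction (adjusted p = 0.34). Igfbp5 fell at a low level of 1.27 CPM in control cells (-0.49, adjusted p = 0.024), and the call was lost after the correction (-0.38, adjusted p = 0.054).

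Among 16 receptor relatives and adaptors, 4 rose and 6 fell. Insrr, the insulin receptor-related receptor, fell from 6.89 ± 1.06 to 3.0 ± 1.07 CPM (log2 fold change -1.20, adjusted p = 2.8e-07, -1.23 after the correction). Sh2b1, an adaptor that enhances insulin receptor signalling, rose from 129 ± 3.34 to 172 ± 15.1 CPM (0.41, adjusted p = 2.6e-08, 0.21 after the correction), with all 12 verapamil libraries above every control. The adaptor gene Gab1 fell (-0.49, adjusted p = 0.0077, -0.50 after the correction).

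Beside Pik3r1, 4 genes of class I PI3K subunits were measured, of which 1 rose and 3 fell. The list holds a further measured gene, Pik3ap1, an adaptor of PI3K and not a subunit, named here after its values were seen, which fell at 0.895 CPM in control cells (-0.60, adjusted p = 0.046). The regulatory subunits went both ways. Pik3r3 (p55γ) fell from 16.2 ± 1.30 to 7.44 ± 2.76 CPM (-1.12, adjusted p = 3.4e-06, -0.72 after the correction), and Pik3r2 (p85β) rose from 77.4 ± 4.27 to 96.4 ± 10.8 CPM (0.32, adjusted p = 3.5e-05, 0.10 after the correction). The catalytic subunit Pik3ca (p110α) fell in the uncorrected fit (-0.68, adjusted p = 0.0031) and was at 0.03 after the correction (adjusted p = 0.51). Pik3cb (p110β) likewise went from -0.35 (adjusted p = 0.028) to 0.05 (adjusted p = 0.64).

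Around AKT itself, 2 of 7 genes rose and 3 fell. Rictor, a defining subunit of the mTORC2 complex that phosphorylates AKT, fell in the uncorrected fit (-1.05, adjusted p = 0.0034). It was at -0.52 after the correction (adjusted p = 0.0033) and at 0.08 with the slopes as covariates (adjusted p = 0.52). Prr5, another mTORC2 subunit, rose in the uncorrected fit (0.30, adjusted p = 0.015) and was at 0.01 after the correction (adjusted p = 0.92). Pdpk1, the kinase PDK1 that phosphorylates AKT, turned from -0.23 (adjusted p = 0.037) to 0.22 after the correction (adjusted p = 0.0012).

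Of 10 AKT substrates and FoxO relatives, 3 rose and 4 fell. Bad, a pro-apoptotic AKT substrate, rose from 53.9 ± 3.07 to 77.0 ± 13.8 CPM (0.51, adjusted p = 7.1e-06), with all 12 verapamil libraries above every control, and was at 0.19 after the correction (adjusted p = 5.3e-05). Gsk3a rose (0.33, adjusted p = 0.00042) and Gsk3b fell (-0.34, adjusted p = 0.0049). Sgk3, a kinase related to AKT, fell (-0.64, adjusted p = 0.0046). After the correction Gsk3a was at 0.06 (adjusted p = 0.43), Sgk3 at -0.06 (adjusted p = 0.66), and Gsk3b had turned to 0.12 (adjusted p = 0.0073).

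In the mTORC1 arm, 5 of 13 genes rose and 2 fell, and without column V11 9 rose and 2 fell, beside 63.7% of all genes called. Rps6, the ribosomal protein that S6 kinase phosphorylates, rose (0.56, adjusted p = 6.5e-06, 0.21 after the correction), as did Akt1s1 (PRAS40, an AKT substrate, 0.40, adjusted p = 4.8e-05, 0.11 after the correction) and Deptor (an mTOR inhibitor, 0.50, adjusted p = 0.029, and 1.02 after the correction). Rps6kb1, S6 kinase itself, fell (-0.82, adjusted p = 0.0022, -0.18 after the correction). In the RAS-MAPK arm, 5 of 11 rose and 4 fell, with Hras up (0.37, adjusted p = 7.8e-05, 0.12 after the correction). Braf fell (-0.69, adjusted p = 0.00090, -0.02 after the correction) and Map2k2 rose (0.34, adjusted p = 0.00040, 0.06 after the correction).

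Among 16 phosphatases and other brakes, 5 rose and 4 fell. The tyrosine phosphatase gene Ptpn2 fell (-0.47, adjusted p = 0.0012, 0.02 after the correction). The cytokine signalling inhibitors Socs2 (-0.46, adjusted p = 0.023) and Socs1 (0.45, adjusted p = 0.027) went opposite ways at 1.41 and 1.81 CPM in control cells, and Socs1 was not called without column V11 (adjusted p = 0.062). After the correction neither was called (-0.19 and 0.19, adjusted p = 0.32 and 0.28), and with the slopes as covariates Socs1 was at -0.22 (adjusted p = 0.37).

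Of 16 measured FoxO target genes, 3 rose and 8 fell (median -0.26), beside 62.8% of all genes called, while after the correction 5 rose and 5 fell (median 0.01), beside 57.2% of all genes called. The fall of Txnip, which encodes an inhibitor of thioredoxin, was the largest of the list, from 3.67 ± 0.698 to 1.03 ± 0.386 CPM (-1.83, adjusted p = 1.8e-08, -1.87 after the correction). Bcl6, a transcriptional repressor, fell as well (-0.86, adjusted p = 0.00024, -0.91 after the correction). Sesn3, a sestrin, had all 12 verapamil libraries below every control (-0.61, adjusted p = 0.00037) but was at -0.07 after the correction (adjusted p = 0.17). Rbl2, a relative of the retinoblastoma protein, fell (-0.48, adjusted p = 0.0025, -0.26 after the correction).

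In the CREB arm, through which calcium and cAMP are known to reach Irs2, 2 of 5 genes rose and 1 fell. Camk4, a calcium- and calmodulin-dependent kinase that phosphorylates CREB, rose from 5.33 ± 0.836 to 16.9 ± 2.41 CPM (1.66, adjusted p = 1.0e-13, 1.63 after the correction), with all 12 verapamil libraries above every control. Creb1 fell (-0.91, adjusted p = 0.0010, -0.18 after the correction, adjusted p = 0.0099), and the coactivator gene Crtc2 rose in the uncorrected fit only (0.22, adjusted p = 0.00011, 0.01 after the correction, adjusted p = 0.86).

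**Figure D4:**
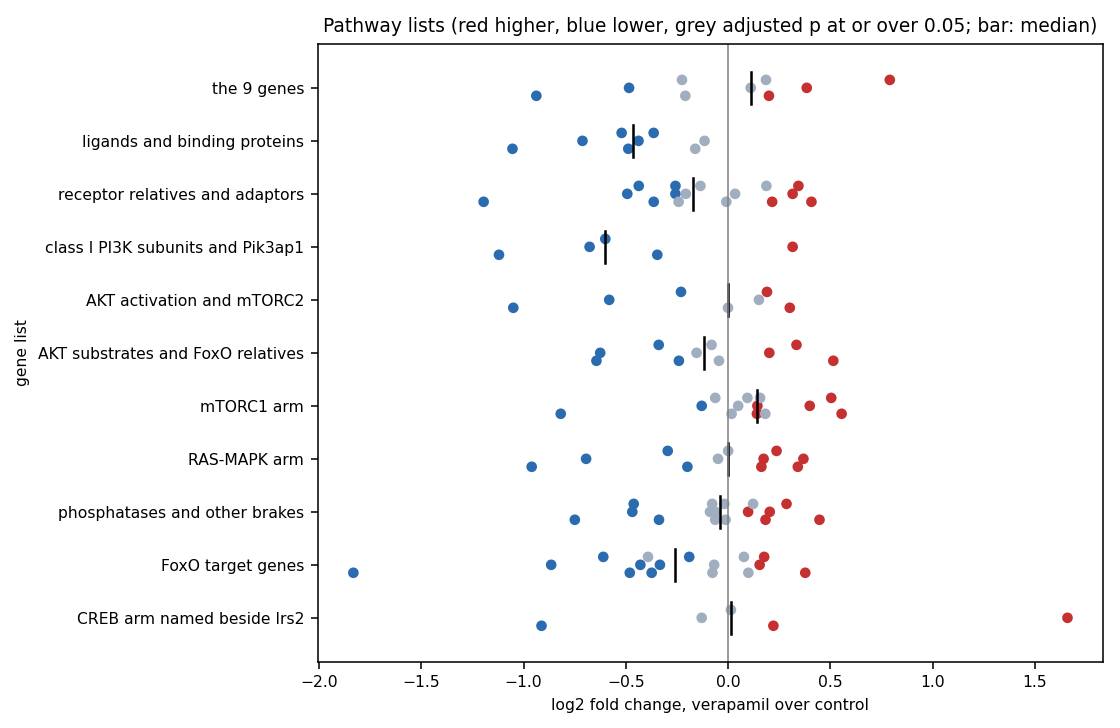
Log2 fold change of verapamil over control (horizontal axis) for the 9 genes and the 10 lists of further pathway genes (vertical axis), 1 point a gene and a black bar at the median, red where higher and blue where lower at an adjusted p under 0.05 in edgeR's quasi-likelihood test, grey otherwise. Points of most lists lay on both sides of 0, whereas all 8 measured ligands and binding proteins lay below it, and Camk4, at 1.66, and Txnip, at -1.83, lay farthest out.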

How the data were processed

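RNA sequencing of MIN6 cells was analysed in 24 libraries, 12 per group. The counts are raw reads per gene as the authors deposited them, made according to their methods and processing notes with Trimmomatic 0.39, HISAT2 2.1.0 (GRCm38) and HTSeq 0.9.1. Whether strand was used in counting is not stated by any source used here, and the labels and the methods name different library kits. The 6 deposited columns of the authors' own comparison (mean level, fold changes and p-values) were not used.

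Counts were filtered (filterByExpr; minimum count 10, total 15), TMM-normalized and tested with edgeR 4.0.16 (R 4.3.3; quasi-likelihood, no covariates, Benjamini-Hochberg over 12306 genes, threshold 0.05). Standard errors were taken as the absolute log2 fold change over the root of the F statistic. Sums per experiment set and a set-by-treatment interaction used the same model. GC and length trends were natural splines per library, given as offsets, with GC content and length from the longest GENCODE M21 transcript of each gene (12308 genes matched). Ratios were compared with 100000 permutations (scipy 1.17.1). Alternatives used limma 3.58.1 and DESeq2 1.42.0. Only the edgeR comparison of the groups was tested on simulated data, with and without offsets. The other fits and the permutations were not tested in this way. Promoters are RefSeq, with an entry for all members but Insr.

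Named are the 9 members, up to 4 called genes per list with the largest changes and at least 1 CPM, and the genes most like each member. Ins1 and the markers were named beside these. Some genes that the rule selects are not reported here. Members, lists and motifs were chosen with earlier results of these data known.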

Additional observations from a re-analysis of the deposited data

Results flagged for a closer look

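The effect of verapamil on Pik3r1 differed between the 4 experiment sets (interaction of set and treatment, edgeR quasi-likelihood test, adjusted p = 0.015). All 4 sets moved down, by log2 differences of -0.54, -1.75, -1.56 and -0.53 in sets 1 to 4. Groups of 12 libraries were not tested for single outlying samples.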

How the results depend on the processing

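The calls of Irs2, Pik3r1, Akt1 and Foxo1 held in 27, 26, 27 and 27 of 28 alternatives, and those lost were within single experiment sets, of 3 against 3. That of Akt2 held in 23, was lost in 4 and turned in 1. Over the sums, of 7 alternatives, the call of Pik3r1 was lost in 4, that of Foxo3 in 5 and that of Akt1 in 2. In set 4 alone, which holds column V11, 50 genes and 0 members were called by edgeR (1 member at an unadjusted p under 0.05, with no other tool run), and Irs1, Igf1r and Akt2 turned sign (-0.103, -0.126 and -0.0231), as did Irs1 in set 2 alone (-0.0545), without the verapamil libraries of set 1 (-0.00548), and over the sums, where leaving out a set gave -0.0137 to 0.163. In set 1 alone 3401 genes were called, against 7726 in all. With the slopes as covariates 4364 genes and 8 members were called, with Insr at 0.276 and Foxo3 at 0.0852, and Insr was at 0.212 after the GC and length correction. The count of members was also 8 without column V11 and without the verapamil libraries of set 4, beside 7837 and 8372 genes called. Over the sums, leaving out a set gave 2 to 6 members called, against 5. Beside the 5, 3005 of all genes rose and 2124 fell. Without set 1, with 6 members called, 3051 rose and 2568 fell. Without sets 2 and 3, with 2 members called in each, 1061 and 1093 rose and 710 and 706 fell. Members whose effect differed between sets, 1 in all, were 2 without column V11, 0 to 2 when a set was left out. Beside these counts, 1196 of all genes differed between sets, 4054 without column V11 and 129 to 2261 when a set was left out. Ratios lost were Akt2 to Akt1 without set 2 (-0.18; adjusted permutation p = 0.050), without set 4 (-0.11; 0.079) and after the correction (-0.00439), and Foxo3 to Foxo1 after the correction (0.0118). The cause was not tested.

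The replicate numbers did not pair the libraries. Over 10 numbered pairs the correlation of deviations was -0.051 to 0.11, and 0 control libraries correlated best with their own number. With the replicate number as a block, over the 20 numbered libraries, 3651 genes rose and 3917 fell, with 4 and 2 members, against 3872, 3860, 4 and 3 without the block. With experiment set as a replicate block 3852 genes rose and 4073 fell, with 3 and 2 members. Over the sums the block left 4 members called, beside 2510 genes that rose and 2292 that fell. The alternatives without column V11 and over the 20 numbered libraries were chosen after seeing the data. Counting error limits Irs1 and Pik3r1 most, at a lowest count of 84 and 70 reads in a library.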
